A study of Mus musculus with 6 samples.

Results

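The smooth muscle contractile genes examined here are 10 genes that encode the filaments of smooth muscle and their regulators: Acta2, Actg2, Myh11, Mylk, Cnn1, Cald1, Tagln, Lmod1, Smtn and Des. They were found on the array as every probe set whose platform annotation gave a single symbol among these 10. They are 10 of the 12393 genes named this way. They had 17 of the 22626 probe sets that were not controls, with 1 to 3 for each gene, and 15 of the 17 were bright enough to be tested. Affymetrix Mouse 430A arrays were hybridised with total lung RNA from female ob/ob mice of strain B6.V-Lepob/J at about 1 month of age. The Lep ob mutation, which removes functional leptin, is carried by both groups. A leptin-treated group of 3 arrays was compared with a saline-treated group of 3 arrays, and each label names 1 animal and 1 lung sample. The sources used here do not give the dose, the route or the duration of treatment.

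Smooth muscle in the lung surrounds the conducting airways and the pulmonary arteries and veins. Contraction starts when calcium and calmodulin activate myosin light chain kinase, which phosphorylates the light chains of smooth muscle myosin and lets it pull on actin filaments. Calponin, caldesmon and transgelin sit along those filaments, and desmin links the contractile apparatus to the cell periphery. Most of these genes are known as targets of serum response factor and its partner myocardin, which act through a DNA element called the CArG box. In the developing lung, Acta2 and Tagln are also made by myofibroblasts of the alveolar septa, and desmin is found in cardiac muscle and pericytes as well. Since whole lungs were used, more cells of a type and more RNA per cell cannot be told apart in any value below.

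The sequences that follow show where the 250 bases before a RefSeq gene start held the CArG box or a sequence 1 letter away from it. The RefSeq promoter table (GRCm38.p6) had 8 promoters for 7 of the 10 genes, and none was used for Actg2, Tagln or Myh11. None of the 8 held the exact box, which 1.47% of all 32851 promoters held in windows of the same length. With 1 of the 10 letters allowed to differ, 3 of the 8 promoters held a match, 37.5%, against 18.6% of all promoters. The box reads the same in form on both strands, so 1 scan covered both. Each line gives 30 bases from 5′ to 3′, with the 10 matching positions in capitals, for the pair of matches in Acta2 and the pair in Lmod1.
Acta2, 84 bases before the start, chr19:34255438-34255467, minus strand: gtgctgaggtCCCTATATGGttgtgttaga
Acta2, 34 bases before the start, chr19:34255388-34255417, minus strand: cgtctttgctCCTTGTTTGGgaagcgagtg
Lmod1, 189 bases before the start, chr1:135324614-135324643, plus strand: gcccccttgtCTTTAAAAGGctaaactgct
Lmod1, 164 bases before the start, chr1:135324639-135324668, plus strand: ctgctctgtaCTAAATTTGGtcacgcagcg
The Acta2 start of that table lies inside the annotated span of the gene, so its windows may be transcribed from another start. One of 2 Cald1 promoters held the remaining match. The 2 genes whose sequences are printed gave different readings on the arrays. The bright Acta2 probe set read above both saline replicates 2 and 3 on every leptin array. The dim Acta2 probe set and Lmod1 overlapped between the groups.

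Saline replicate 1 stood apart from the other arrays and was kept out of the main fit. Its log2 values correlated with those of the other 5 arrays at 0.438 to 0.447, against 0.973 to 0.978 among those 5 (Pearson's r across probe sets, a description). Its reading of the Y-linked Eif2s3y was 84.9 against 1.2 to 3.4 elsewhere, and a probe set of the Y-linked Uty read 1108.1 against 12.7 to 67.3, although every label says female. Xist, the RNA of the inactive X chromosome, read 7896.0 against 2697.3 to 3645.6 on one probe set, 275.6 against 122.3 to 260.3 on another and 578.0 against 1055.2 to 1553.0 on the third, so the sex-linked genes gave no single reading of this array. The 10th percentile of its intensities was 57.1, compared with 16.4 to 19.3. Of 10 probe sets of lung identity genes, 8 read below the range of the other arrays on saline replicate 1 and 2 above it. The main probe set of surfactant protein Sftpc read 4087.1 there against 23964.4 to 29731.9, whereas Scgb1a1, the secretory protein of club cells, read 68879.7 against 18472.6 to 22287.7, and a second Sftpc probe set read 683.2 against 3.6 to 31.7.

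The contractile genes were split as well, and leaned below, as 8 of the 10 lung identity probe sets did, where the probe sets as a whole leaned above. The whole includes probe sets too dim to test, whereas 15 of the 17 contractile ones were tested. The part of brightness in this difference was not tested. On saline replicate 1, 10 of the 17 probe sets read below the whole range of the other 5 arrays, 6 read above it and 1 read within it. Over all 22626 probe sets, 33.8% read below, 54.6% above and 11.6% within. The direction differed even between probe sets of a single gene. A Mylk probe set read 114.4 on saline replicate 1, a ratio of 0.0303 to the median of the others, while its companions in Mylk were at ratios of 1.44 and 1.15. Myh11 behaved likewise, with ratios of 0.0743 on one probe set and 28.3 on the other, which is dim elsewhere. Tagln, Cnn1 and Actg2 stood at ratios of 0.0828, 0.234 and 0.268. The probe set of Acta2 that passed the filter was the 1 reading within the range, at a ratio of 1.04.

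**Figure D1:**
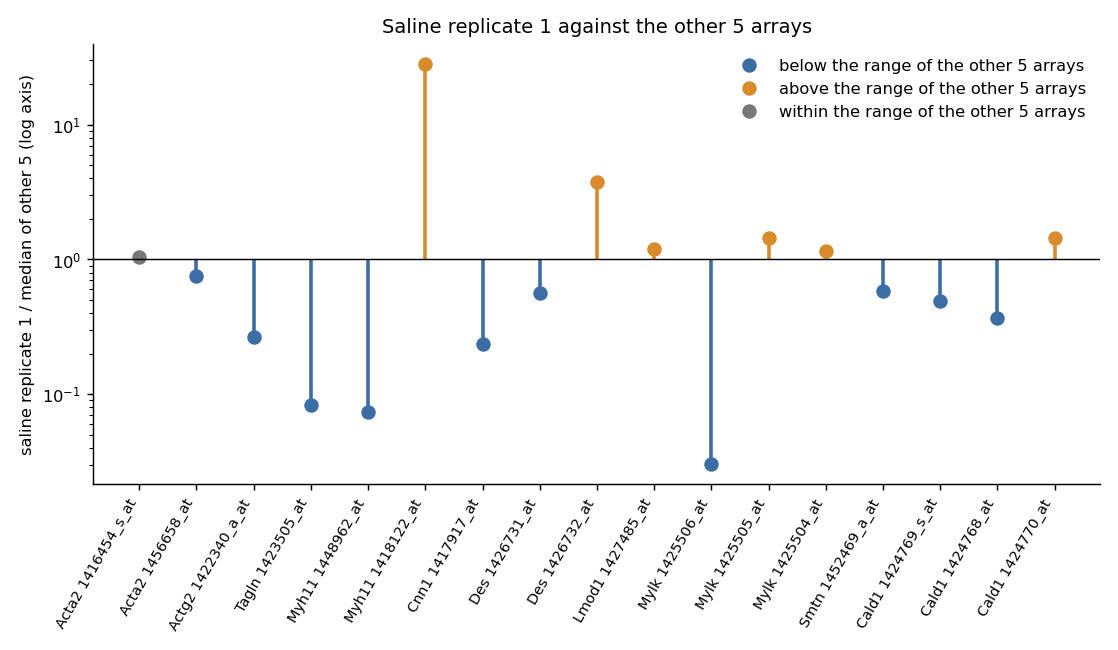
Ratio of the intensity on saline replicate 1 to the median of the other 5 arrays (vertical log axis) for each of the 17 probe sets (horizontal axis), coloured by whether saline replicate 1 lay below, within or above the range of those arrays. The ratios run from 0.0303 for a Mylk probe set to 28.3 for a Myh11 probe set, with 10 below, 1 within and 6 above.

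Leptin-treated lungs were compared with saline replicates 2 and 3 to ask which contractile transcripts differ once ob/ob mice receive leptin. The 3 leptin arrays all read above both saline arrays for Cnn1, Tagln, Actg2, the tested probe sets of Myh11 and Acta2, and 1 of 3 Mylk probe sets. These changes were 0.21 to 0.50 on the log2 scale. The dim Myh11 and Acta2 probe sets, which were not tested, overlapped between groups. Des, Lmod1, Smtn, all 3 Cald1 probe sets and the other Mylk probe sets overlapped between groups, with log2 changes between -0.17 and 0.08. No contractile probe set passed the threshold. The limma adjusted p was 1 for each of the 15 tested, and 2 were higher at an unadjusted p under 0.05, with 0 lower. Changes are differences of log2(intensity + 22.1), leptin minus saline, and each is given with its standard error from limma (n = 3 leptin and 2 saline arrays).

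Across the whole table, 7 of 15838 tested probe sets passed at an adjusted p under 0.05, which is 0.0442%, and with all 6 arrays none did (0%), with 61 at an unadjusted p under 0.05. With the replicate number as a block on the 5 arrays, limma gave 0 calls in place of 7, and 1143 at an unadjusted p under 0.05. Leptin replicate 1 has no saline partner in that fit, so its changes rest on replicates 2 and 3 of both groups alone. The contractile changes with this block equal those without leptin replicate 1. At an unadjusted p under 0.05, limma gave 2.61% higher and 1.98% lower over all probe sets on the 5 arrays, and 3.55% and 3.66% with the block. With the block, the contractile probe sets at an unadjusted p under 0.05 went from 2 to 5, all higher: Cnn1 (0.00376), Myh11 (0.0209), Tagln (0.0421), Mylk 1425505_at (0.0478) and Acta2 (0.0479). Their limma adjusted p with the block ran from 0.557 to 0.690. Over all tested probe sets, the number at an unadjusted p under 0.05 rose as well, from 728 to 1143. The block leaves few degrees of freedom, so these p rest largely on the variance that limma shares across probe sets. Groups without overlap were found for 6 of the 15 contractile probe sets, all with leptin above, and for none with leptin below. The background share was 9.92% with leptin above and 9.66% with leptin below. Higher values in sign alone were seen for 9 of 15 probe sets against 50.3% of all, and the median change was 0.06 against 0.00 for all tested probe sets, whose middle range ran from -0.12 to 0.13. With all 6 arrays, 11 of 15 were higher against 51.3% of all, with medians of 0.20 and 0.02.

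Alpha smooth muscle actin, Acta2 (Entrez Gene 11475), is the main actin of vascular smooth muscle. Its bright probe set 1416454_s_at gave 4758.3, 4860.9 and 5672.4 in leptin-treated lungs. Saline replicates 2 and 3 gave 4284.5 and 4520.1, and saline replicate 1 gave 4969.2. Leptin replicate 3 was the highest and all 3 leptin arrays lay above both saline arrays of the fit, but saline replicate 1 lay among the leptin arrays. The change was 0.21 ± 0.12 (95% interval -0.06 to 0.47), and 0.13 without leptin replicate 3. The mean of both Acta2 probe sets gave 0.09 ± 0.15. The suffix of this probe set marks probes that match more than 1 transcript, which can belong to related genes, so other actins may add to its signal. A second Acta2 probe set, 1456658_at, fell below the filter, at 78.2, 72.9 and 57.7 with leptin and 58.5 and 85.7 with saline, and its groups overlapped.

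Gamma smooth muscle actin, Actg2 (11468), is the actin typical of visceral and airway muscle. It read 465.7, 466.9 and 682.3 with leptin and 429.8 and 447.0 with saline, with 124.6 on saline replicate 1. The first 2 leptin arrays were only slightly above the saline arrays, and leptin replicate 3 stood well above them. The change of 0.26 ± 0.19 (-0.15 to 0.68) accordingly dropped to 0.09 without leptin replicate 3.

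The myosin heavy chain of smooth muscle, Myh11 (17880), is the motor of the thick filament and among the most specific markers of the cell type. Probe set 1448962_at read 727.8, 688.9 and 848.6 with leptin and 572.6 and 542.3 with saline, with 51.2 on saline replicate 1. All leptin arrays were above both saline arrays, and the gap between the groups exceeded the difference between the saline arrays. Its change was 0.42 ± 0.15 (0.09 to 0.75), at an unadjusted limma p of 0.0185 and an adjusted p of 1. It ranged from 0.33 to 0.48 when any of the 5 arrays was left out. The other Myh11 probe set, 1418122_at, was designed from the same transcript record and was too dim to test. It read 9.6, 26.0 and 24.7 with leptin and 14.0 and 10.5 with saline, and the mean of both probe sets gave 0.35 ± 0.23.

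Mylk (107589) encodes the kinase that switches the motor on, and its 3 probe sets come from a shared transcript record. The brightest, 1425506_at, read 3779.3, 3796.3 and 3561.2 with leptin against 4175.0 and 3236.4 with saline. The saline arrays enclosed the leptin arrays, and the change was 0.01 ± 0.13 (-0.28 to 0.31). Probe set 1425505_at read 885.3, 1017.5 and 1079.1 with leptin against 874.8 and 815.8 with saline, at 0.22 ± 0.14 (-0.09 to 0.54). Here the groups did not overlap, although leptin replicate 1 lay barely above saline replicate 2. The third, 1425504_at, read 377.0, 373.7 and 333.7 against 366.7 and 373.7, at -0.03 ± 0.16. The mean of the gene's probe sets gave 0.07 ± 0.13. Saline replicate 1 read 114.4, 1278.1 and 430.5 on these probe sets, so with all 6 arrays the brightest moved to 1.60 ± 1.29 (limma adjusted p = 0.715) and the others to 0.03 and -0.10.

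**Figure D2:**
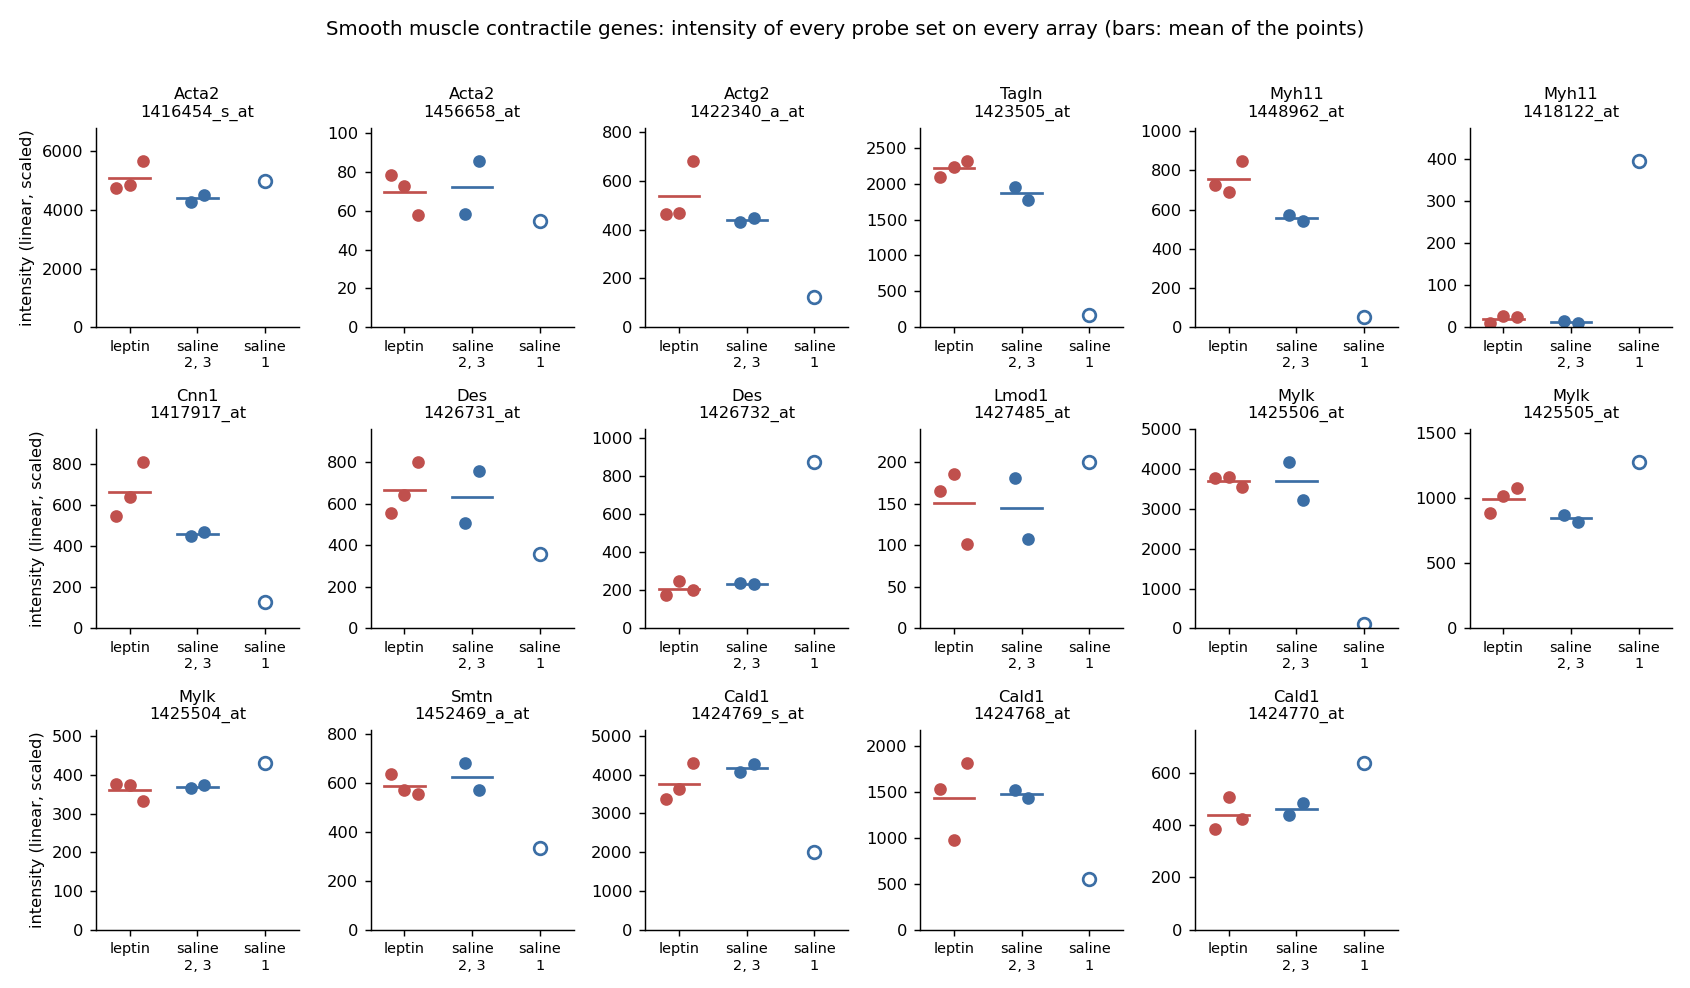
Intensity (linear, as deposited; vertical axes start at 0) of each of the 17 probe sets on the 3 leptin arrays (red), saline replicates 2 and 3 (filled blue) and saline replicate 1 (open blue), with bars at the means of the red and filled blue points. Cnn1, Myh11 1448962_at and Tagln show all leptin points above both filled saline points, and the open point far below, at 128.9, 51.2 and 172.9.

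Cnn1 (12797), basic calponin, binds actin and restrains myosin's activity. It read 549.7, 639.5 and 810.3 with leptin and 451.0 and 467.5 with saline, with 128.9 on saline replicate 1. Every leptin array was higher than both saline arrays, which differed little from each other. This was the largest change of the 15 tested contractile probe sets on the 5 arrays, 0.50 ± 0.18 (0.11 to 0.89), at an unadjusted limma p of 0.0174 and an adjusted p of 1. Leaving out 1 array at a time kept it between 0.35, without leptin replicate 3, and 0.62, without leptin replicate 1. With the replicate block, in which leptin replicate 1 has no partner, it was likewise 0.62 ± 0.14 (limma adjusted p = 0.557).

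Tagln (21345), transgelin or SM22 alpha, is an abundant actin-bundling protein of differentiated smooth muscle. Intensities of 2088.0, 2232.9 and 2317.6 with leptin compared with 1956.5 and 1771.9 with saline, and with 172.9 on saline replicate 1. The lowest leptin array was above the higher of the saline arrays by less than the saline arrays differed from each other. The change was 0.25 ± 0.12 (-0.03 to 0.52), at an unadjusted limma p of 0.0759, and 0.17 without saline replicate 3.

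Cald1 (109624), caldesmon, covers the actin filament and exists in a smooth muscle form and a form of other cells. Its 3 probe sets share a transcript record. The brightest, 1424769_s_at, read 3378.2, 3629.3 and 4294.0 with leptin and 4066.4 and 4270.6 with saline, and the change was -0.15 ± 0.13 (-0.44 to 0.14). Probe set 1424768_at read 1531.9, 969.4 and 1806.9 against 1514.4 and 1428.8, at -0.08 ± 0.22. In both, leptin replicate 3 was the highest array and another leptin array the lowest, so the spread among leptin animals covered the saline values. The third, 1424770_at, read 382.9, 508.2 and 424.3 against 436.4 and 483.6, at -0.07 ± 0.17. The 3 changes had 1 sign on the 5 arrays. With saline replicate 1, which read 2011.5, 554.9 and 635.0, they were 0.20, 0.38 and -0.22.

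Lmod1 (93689), leiomodin, starts the assembly of actin filaments in smooth muscle. It read 166.1, 185.6 and 101.9 with leptin and 181.2 and 108.3 with saline, with 200.3 on saline replicate 1. Its lowest value fell on leptin replicate 3, the array that was highest for the tested probe sets of Acta2, Actg2, Myh11, Cnn1 and Tagln. The change was 0.06 ± 0.29 (-0.59 to 0.70), which became -0.26 when saline replicate 3 was left out and 0.38 when saline replicate 2 was, so it has no settled sign.

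Smtn (29856), smoothelin, is a cytoskeletal protein of contractile smooth muscle. It read 636.3, 572.9 and 555.2 with leptin and 681.6 and 570.9 with saline, with 335.8 on saline replicate 1. The groups overlapped, and the change was -0.08 ± 0.15 (-0.42 to 0.25).

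Des (13346), desmin, is the intermediate filament protein of all muscle. Probe set 1426731_at read 554.3, 640.0 and 799.8 with leptin and 506.9 and 756.5 with saline, at 0.08 ± 0.20 (-0.37 to 0.53). The saline arrays lay far apart, and the sign turned to -0.20 without saline replicate 2 and -0.06 without leptin replicate 3. Probe set 1426732_at read 173.7, 250.5 and 201.8 against 237.7 and 232.9, at -0.17 ± 0.20. Saline replicate 1 read 358.0 on the first and 873.3 on the second, so with all 6 arrays they were at 0.33 and -0.77.

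**Figure D3:**
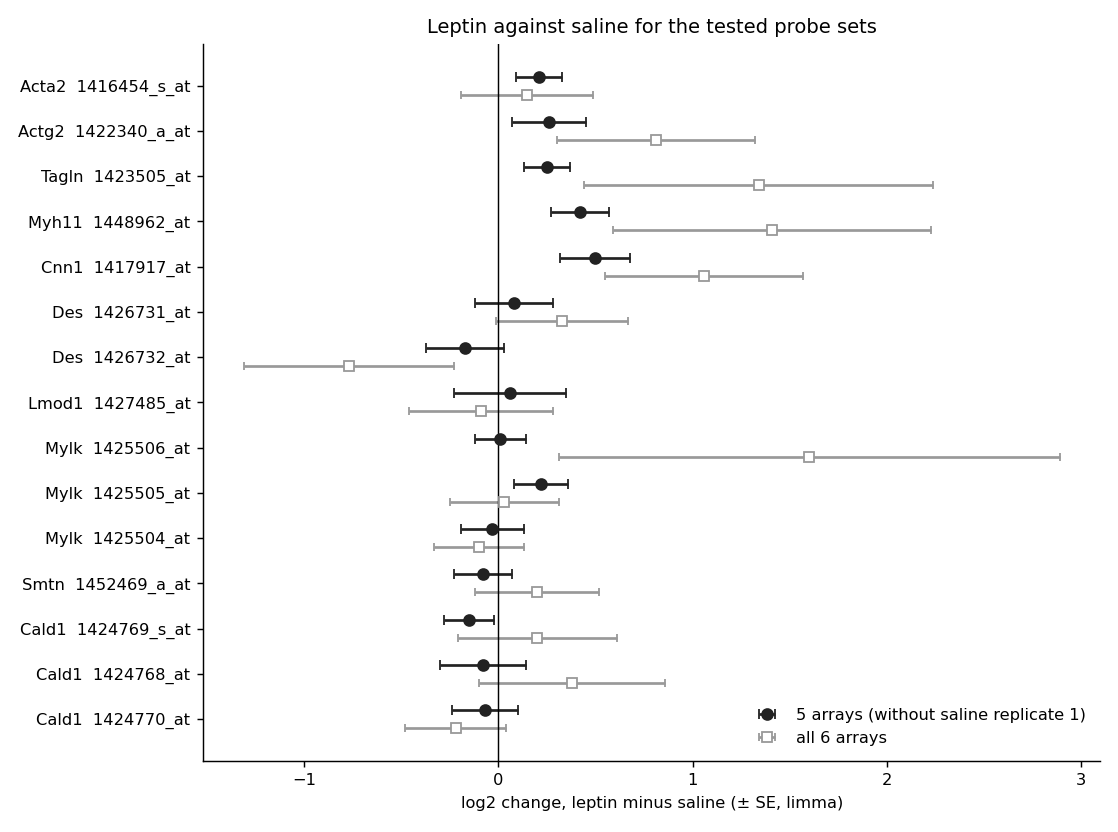
Log2 change, leptin minus saline (horizontal axis, ± SE from limma), of the 15 tested probe sets on the 5 arrays without saline replicate 1 (black circles) and on all 6 arrays (grey squares). On the 5 arrays the changes run from -0.17 to 0.50. On 6 arrays they run from -0.77 to 1.60 with wider errors.

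With all 6 arrays, the comparison as the series designed it, changes were larger and less precise. Tagln was at 1.34 ± 0.90, Myh11 at 1.41 ± 0.82, Cnn1 at 1.06 ± 0.51 and Actg2 at 0.81 ± 0.51, while Acta2 was at 0.15 ± 0.34. The median standard error of the tested contractile probe sets was 0.41, compared with 0.16 on the 5 arrays. Limma adjusted p ran from 0.715 to 0.958, and 0 of the 15 reached an unadjusted p under 0.05. The criterion stated by the series asks for a change of 1.5-fold, p under 0.05 and that fold in 6 of 9 pairwise comparisons. No contractile probe set met it on 6 arrays, where 0.202% of all tested probe sets did. On the 5 arrays, with 4 of 6 pairwise comparisons asked for, it was also met by 0 of the 15 against 0.492% of all.

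Within the leptin group, replicate 3 carried the highest contractile readings. Of the 15 tested probe sets, 9 had their highest value of the 5 arrays on leptin replicate 3, where 18.5% of all tested probe sets did. The median deviation of these 15 from their own mean over the 5 arrays was 0.17 on leptin replicate 3, -0.01 and 0.04 on leptin replicates 1 and 2, and -0.03 and -0.09 on saline replicates 2 and 3. Saline replicate 1 was at -0.81. Leptin replicate 3 thus stood highest, and the 4 other arrays of the fit lay between -0.09 and 0.04. The part of this array in the group differences shows in the values without it, which were 0.33 for Myh11, 0.35 for Cnn1, 0.21 for Tagln, 0.13 for Acta2 and 0.09 for Actg2.

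Other genes of the contractile pathway were examined in 5 lists. In each list, 0 probe sets passed the limma threshold on 5 or 6 arrays. Genes that control the contraction cycle, 9 of 13 measured, gave 13 higher and 7 lower of 20 tested probe sets, with a median of 0.03 and none at an unadjusted p under 0.05. The smallest p belonged to Myl6, an essential myosin light chain, at 0.33 ± 0.17, and to Prkg1, the cGMP-dependent kinase that relaxes smooth muscle, at 0.55 ± 0.32. Myl9, the regulatory light chain that Mylk phosphorylates, was at 0.05 ± 0.13.

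Genes of dense bodies and anchoring filaments, 11 of 13 measured, gave 15 higher and 5 lower of 20, with a median of 0.09. Both probe sets that reached an unadjusted p under 0.05 measured Vim, the intermediate filament protein vimentin of fibroblasts and vascular smooth muscle. Over all tested probe sets, limma gave 2.61% higher at that p. Vim 1450641_at read 9206.8, 9165.7 and 9499.1 with leptin against 7221.3 and 5930.9 with saline, at 0.50 ± 0.12 (limma adjusted p = 0.410), and 1456292_a_at was at 0.67 ± 0.17 (0.526). The leptin arrays were above saline replicates 2 and 3 on all 3 Vim probe sets, while saline replicate 1 read 1544.5, 2411.8 and 10438.1, on both sides of the rest. Vim thus read without overlap in the direction of Cnn1 and Myh11, though none of them passed the adjusted threshold, whereas Des, the muscle filament of the same family, overlapped between groups. Zyx, zyxin of focal adhesions, had 1 probe set at -0.26 ± 0.13 with all leptin arrays below.

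Ion channels, calcium handling and receptors, 9 of 14 measured, were split 7 higher and 8 lower of 15, with a median of -0.01. The smallest p were those of Atp2a2, the calcium pump of the sarcoplasmic reticulum, at 0.32 ± 0.15, and Kcnma1, the pore of the calcium-activated potassium channel, at -0.26 ± 0.21. The other 3 Atp2a2 probe sets were between -0.09 and 0.02. In the transcriptional regulators, all 12 genes were measured and 11 probe sets were higher and 6 lower of 17, with a median of 0.08. Heyl, a Notch target of vascular smooth muscle, was lowest at -0.69 ± 0.30 on a probe set below an unadjusted p of 0.05 (limma adjusted p = 1), with 0.06 and 0.04 on its other 2. Mrtfa, a serum response factor partner, was at -0.21 ± 0.14, and Srf at 0.20 and 0.09. Both probe sets of Myocd, the master coactivator of this gene set, were too dim to test.

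Actins, myosins, calponins and transgelin of other cells served for comparison with their smooth muscle relatives. Of 16 tested probe sets, 9 were higher and 7 lower, with a median of 0.09. Groups without overlap were found for 5 of them, all with leptin above, against 9.92% of all tested probe sets. These 5 measured Cnn3 and Myh9. Myh9, a non-muscle myosin heavy chain, was at 0.33 ± 0.13 on 1 probe set and between -0.08 and 0.23 on 3 others. Cnn3 was at 0.34, 0.17 and 0.14 on its probe sets without overlap, and between -0.19 and 0.73 on the others. Actb was at -0.51 ± 0.22 on its fainter probe set and -0.06 on the brighter one, Cnn2 at -0.04 and the brighter Tagln2 probe set at 0.04. The tests compare leptin with saline, and differences between relatives such as Cnn1 and Cnn2 were not tested.

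Markers of cell types that share genes with smooth muscle were measured on the same arrays. Of 11 fibroblast probe sets, 10 were higher, 7 without overlap, with a median of 0.40, and 6 were at an unadjusted p under 0.05. Over all tested probe sets, 9.92% had leptin above without overlap, and limma gave 2.61% higher at that p. The smallest p were those of the collagens Col1a1 and Col3a1 at 0.60 ± 0.13 and 0.71 ± 0.16 (limma adjusted p = 0.327 and 0.401). Lum, the matrix proteoglycan lumican, was at 0.68 ± 0.23 without overlap (limma adjusted p = 0.999), while Pdgfra, Dcn and Tcf21 lay between -0.05 and 0.10. The summed intensity of this list was 28322.5 to 28616.1 with leptin, and on saline replicates 2 and 3 it was 23465.1 and 20940.6, and saline replicate 1 gave 12573.2. It was higher with leptin, as Cnn1, Myh11 and Tagln were, and its part in their values was not tested. For pericytes, which express Des and Acta2 at times, 8 of 10 tested probe sets were lower, with a median of -0.18 and sums of 3379.0 to 3808.9 with leptin against 5010.6 and 3766.6 with saline. Kcnj8 and Rgs5 were the 2 genes in which a probe set had all leptin arrays below both saline arrays, at -0.42 ± 0.20 and -0.27 ± 0.16. Over all tested probe sets, 9.66% had leptin below in this way. The other tested Rgs5 probe sets, at -0.22 and 0.03, overlapped between groups, as did those of Pdgfrb at -0.42 and -0.13.

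Cardiac muscle, which in the mouse sheathes the pulmonary veins, was well represented. Actc1, the cardiac actin, read 4468.9 to 5786.9 with leptin and 5807.2 and 4852.8 with saline. Of 11 tested cardiac probe sets, 3 were higher and 8 lower, with a median of -0.05 and 0 without overlap, and the summed list ran from 18459.9 to 24570.5 with leptin against 23918.9 and 22100.6. The groups thus overlapped in cardiac signal. Skeletal muscle markers were dim, with 2 of 11 probe sets above the filter. Both of these, Ckm at 0.15 ± 0.15 and Tnnt3 at 0.28 ± 0.29, overlapped between groups. Sums over all 11, those below the filter included, were 857.5 to 1061.5 with leptin and 810.1 and 746.6 with saline. Every leptin sum was thus above both saline sums, though no tested probe set was. The part of this in the contractile values was not tested. Myh4, a fast myosin of skeletal muscle, read 3.1, 26.0 and 1.7 with leptin and 11.3 and 8.3 with saline. No marker of these 4 lists was at exactly 0. Of 9 tested probe sets of lung identity, 3 were higher and 6 lower, at a median of -0.08.

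**Figure D4:**
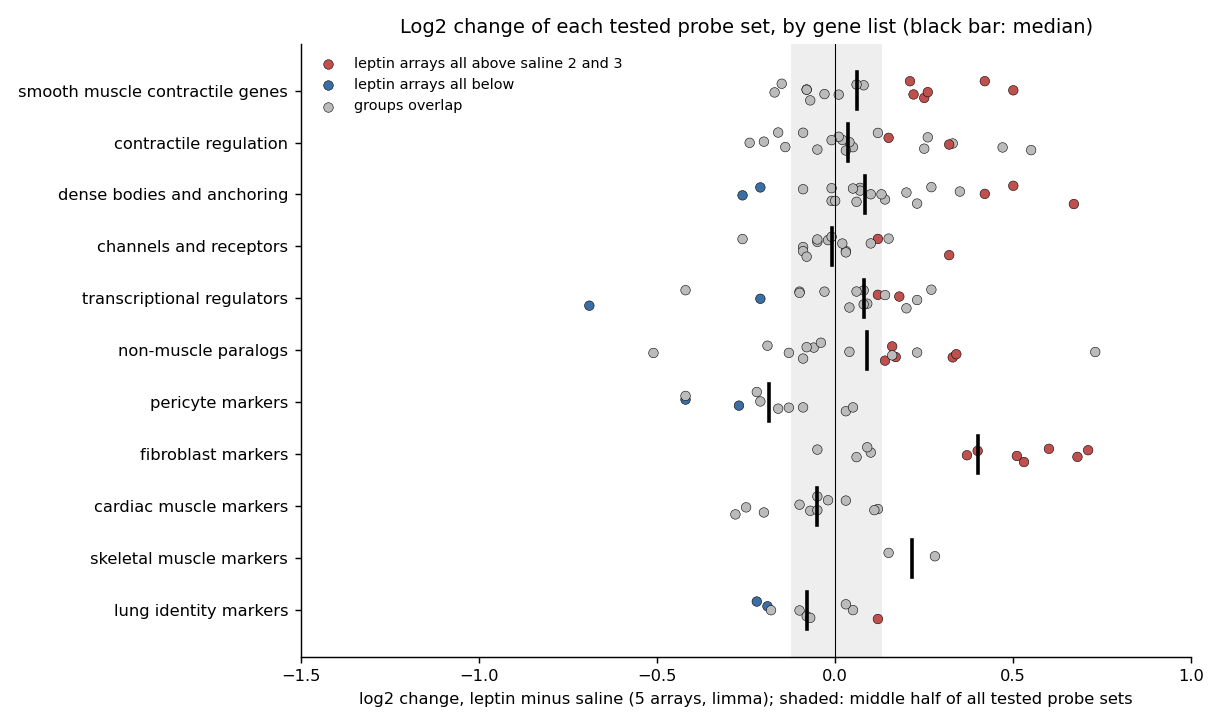
Log2 change, leptin minus saline on the 5 arrays (horizontal axis), of every tested probe set in each gene list (rows), with the list's median as a black bar, red points where all leptin arrays lay above saline replicates 2 and 3 and blue points where all lay below. The medians are 0.06 for the contractile genes, 0.40 for fibroblast markers and -0.18 for pericyte markers, and the shaded band marks the middle range of all tested probe sets, -0.12 to 0.13.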

How the data were processed

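The authors deposited 1 linear intensity value per probe set for each of 6 Affymetrix Mouse 430A arrays. Judged from the values, the authors had scaled each array to a trimmed mean near 500, and the summarisation software is not given in the sources used here. RNA was labelled by a small-sample protocol with repeated cDNA synthesis, per the labels' protocols. Of 22690 probe sets, 64 controls were left out. Genes came from the platform's annotation (20380 probe sets with 1 symbol, 691 with several, 1555 with none).

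Intensities were turned into log2(intensity + 22.1), the pseudocount being the 10th percentile over all arrays. Changes of dim probe sets are understated on this scale. The lowest 30% by mean were dropped and limma 3.58.1 (R 4.3.3; linear fits, then eBayes with trend, two-sided) was run on the 15838 left, with Benjamini-Hochberg adjustment over all of them and a threshold of 0.05. The main fit used 5 arrays and kept saline replicate 1 apart. The fit on all 6 is the first alternative. The series' rule was applied with a 2-sample test of pooled variance on the log2 scale. Scripts were tested on simulated data. For arrays, their number limits the precision. The p-values set each difference against the spread between these samples, which limma moderates across probe sets.

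Members, lists and the naming rule (all members with every probe set; in other lists, genes past the threshold or otherwise the 2 with the smallest p; values of other list genes were chosen after they were seen) were chosen with earlier results of these data known. Same-numbered arrays deviated together from their group means at correlations of 0.103 to 0.144, against -0.147 to 0.0491 for arrays of different number. The saline mean included saline replicate 1, which stood apart. Deviations cancel within a group, so the correlations with saline replicate 1 constrain the others. Among replicates 2 and 3, same-numbered arrays were at 0.108 and 0.103, against 0.0491 and 0.0295 for different numbers. These values therefore cannot decide whether the arrays were paired. The replicate block used the replicate numbers in the sample titles. No label states that arrays of the same number were paired. Alternatives were array weights, the replicate block, pseudocounts of 1 and 80.1, a common median, quantile normalization, no filter, a filter at 50%, no trend, each array left out, and probe sets averaged per gene. The probe sets are given without coordinates, since the array values come with no build.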

Additional observations from a re-analysis of the deposited data

How the results depend on the processing

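No contractile probe set passed the limma threshold in any alternative run (the smallest adjusted p was 0.492), and none met the series' rule in those to which it applies. The tested probe sets of Cnn1, Myh11, Tagln, Acta2 and Actg2 kept a positive sign in each. Without the filter, the dim Acta2 1456658_at was at -0.03 on 5 arrays and 0.06 on 6. The dim Myh11 1418122_at was at 0.27 and -0.93. The 7 calls of the whole table became 0 with all 6 arrays unweighted, and with the replicate block on 5 or 6 arrays. They also became 0 with a pseudocount of 1, no trend, no filter, a common median or quantile normalization. There were 0 to 3 calls when a leptin array was left out. Array weights on all 6 arrays gave 8 calls, a pseudocount of 80.1 gave 7 and a filter at 50% gave 6. With array weights, Cnn1 was at 0.52 ± 0.17 and Myh11 1448962_at at 0.42 ± 0.17 (limma unadjusted p = 0.00865 and 0.026, adjusted p = 0.626 and 0.766). The median change of 0.06 became 0.20 with all 6 arrays, with or without the replicate block, and 0 to 0.39 when an array was left out. The block on 5 arrays brought no contractile probe set past the adjusted threshold, and 5 in place of 2 had an unadjusted p under 0.05. Its changes rest on replicates 2 and 3 of each group, as leptin replicate 1 has no partner there.

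Signs turned for other probe sets. All 6 arrays, with or without the block, gave -0.09 for Lmod1, 0.20 for Smtn and 0.20 and 0.38 for Cald1 1424769_s_at and 1424768_at. Array weights gave 0.00 for Lmod1, the block on 5 arrays -0.02 for Lmod1 and 0.01 for Cald1 1424770_at, a common median 0.00 for Mylk 1425506_at, and the mean of its probe sets -0.04 for Des. With an array left out of the 5 or of the 6, Lmod1 ranged from -0.33 to 0.38, Smtn from -0.21 to 0.40, Des 1426731_at from -0.20 to 0.60, Mylk 1425506_at from -0.17 to 2.48, 1425505_at from -0.09 to 0.30 and 1425504_at from -0.14 to 0.02, and Cald1 1424768_at from -0.27 to 0.63, 1424769_s_at from -0.25 to 0.39 and 1424770_at from -0.33 to 0.01. The cause was not tested. Where 1 saline array remained, it was assumed to vary like the leptin group.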
